A study of Mus musculus with 4 samples.

Results

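The nuclear genes for subunits of the mitochondrial respiratory chain and of ATP synthase were followed in mouse embryonic stem (ES) cells that lacked Snai1. They were chosen by symbol, as every gene measured by a probe set annotated to a single gene whose symbol names a subunit of NADH dehydrogenase (complex I, Nduf genes), succinate dehydrogenase (complex II, Sdh genes), the cytochrome bc1 complex (complex III, Uqcr genes), cytochrome c oxidase (complex IV, Cox4 to Cox8 genes) or ATP synthase (complex V, Atp5 genes). This gave 80 genes of 18193, with 163 probe sets between them: 34 of complex I, 4 of complex II, 8 of complex III, 17 of complex IV and 17 of ATP synthase. The complex of each gene, such as complex I for Ndufa4, was read from its symbol alone and not checked against where its protein sits. For a gene with several probe sets the value used was that of the brightest, by mean over the 4 arrays. The study compared Snai1 knockout ES cells, titled KO.ES, with control ES cells, titled F/F.ES, on 2 Affymetrix arrays each. Both were cultured on feeder cells in medium with leukaemia inhibitory factor (LIF), which keeps ES cells undifferentiated. The labels do not explain F/F, do not say whether a group was 1 clone and do not say what separated the replicates, and the source name of the control samples also holds the words knock out. The direction of every difference therefore rests on the titles and the genotype field, and p-values measure only the spread between these samples, which may be technical.

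The respiratory chain passes electrons from NADH and succinate through complexes I to IV to oxygen and pumps protons across the inner mitochondrial membrane, and ATP synthase uses the return of those protons to make ATP. Some core subunits are encoded in mitochondrial DNA, while the remaining core subunits and all the accessory ones, considered here, are encoded in the nucleus. Several complex IV subunits exist as isoforms from separate genes, some of them restricted to muscle, lung or testis. Mouse ES cells use both glycolysis and respiration, and their reliance on respiration is known to shift between the naive and the primed state of pluripotency.

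Values were log2 expression after RMA, with array medians of 4.91 to 4.95. The knocked-out gene was at 3.79 and 4.04 in knockout cells, against 4.41 and 4.69 in control cells, all within the range of 2.91 to 4.77 spanned by the 27 Bacillus control probe sets, so its level does not check the labels. All 12 ES cell markers examined lay above that range on every array. In the control samples the 3' probe set of Actb exceeded its 5' probe set by far more than in the knockout: the gap was 1.11 and 0.80 in knockout cells, against 3.02 and 2.97 in control cells (log2). That of Gapdh was 0.40 and 0.27 in knockout cells, against 1.24 and 1.48 in control cells. Such a gap grows when RNA is degraded or copied short, and its part in the differences below was not tested. Over all 18193 genes, limma with Benjamini-Hochberg adjustment called 4.14% of genes at an adjusted p of 0.05, 360 of them higher (1.98%) and 394 lower (2.17%) in the knockout. After a further quantile normalization the split was 527 higher and 337 lower.

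Among the 80 subunits, 7 rose in the knockout and none fell. These were Ndufa3 and Ndufa7 of complex I, Uqcrh and Uqcr10 of complex III, Cox6b2 and Cox8a of complex IV and Atp5mpl of ATP synthase. The share that rose was 8.75%, against a background of 1.98% of all genes, and the share of all genes that fell was 2.17%. At an unadjusted limma p under 0.05, 25 subunits were higher (31.2%) and 3 lower (3.75%), against 9.06% and 14.9% of all genes. Most subunits lay a little higher in the knockout: 57 differences were positive and 23 negative. Their median log2 difference was 0.16, against -0.02 over all genes and -0.12 over genes at a mean of 10 or more. Short genes at that level lay higher too, with a median of 0.17 under 5 kb and 0.02 from 5 to under 10 kb. The subunits had a median span of 7.15 kb. Their median difference was 0.35 without knockout replicate 1 and 0.07 without knockout replicate 2. Of the 80, 77 lay above the range of the Bacillus probe sets on every array, and Ndufb4, Cox8b and Cox7b2 lay within it on all 4. Without overlap between the groups, 33 subunits were higher (41.2%) and 14 lower (17.5%), against 23.1% and 29.2% of all genes. Without control replicate 2 no subunit passed (24 were higher at an unadjusted p under 0.05 and 1 lower), and without any 1 of the other 3 arrays 1 passed, Cox6b2.

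**Figure D1:**
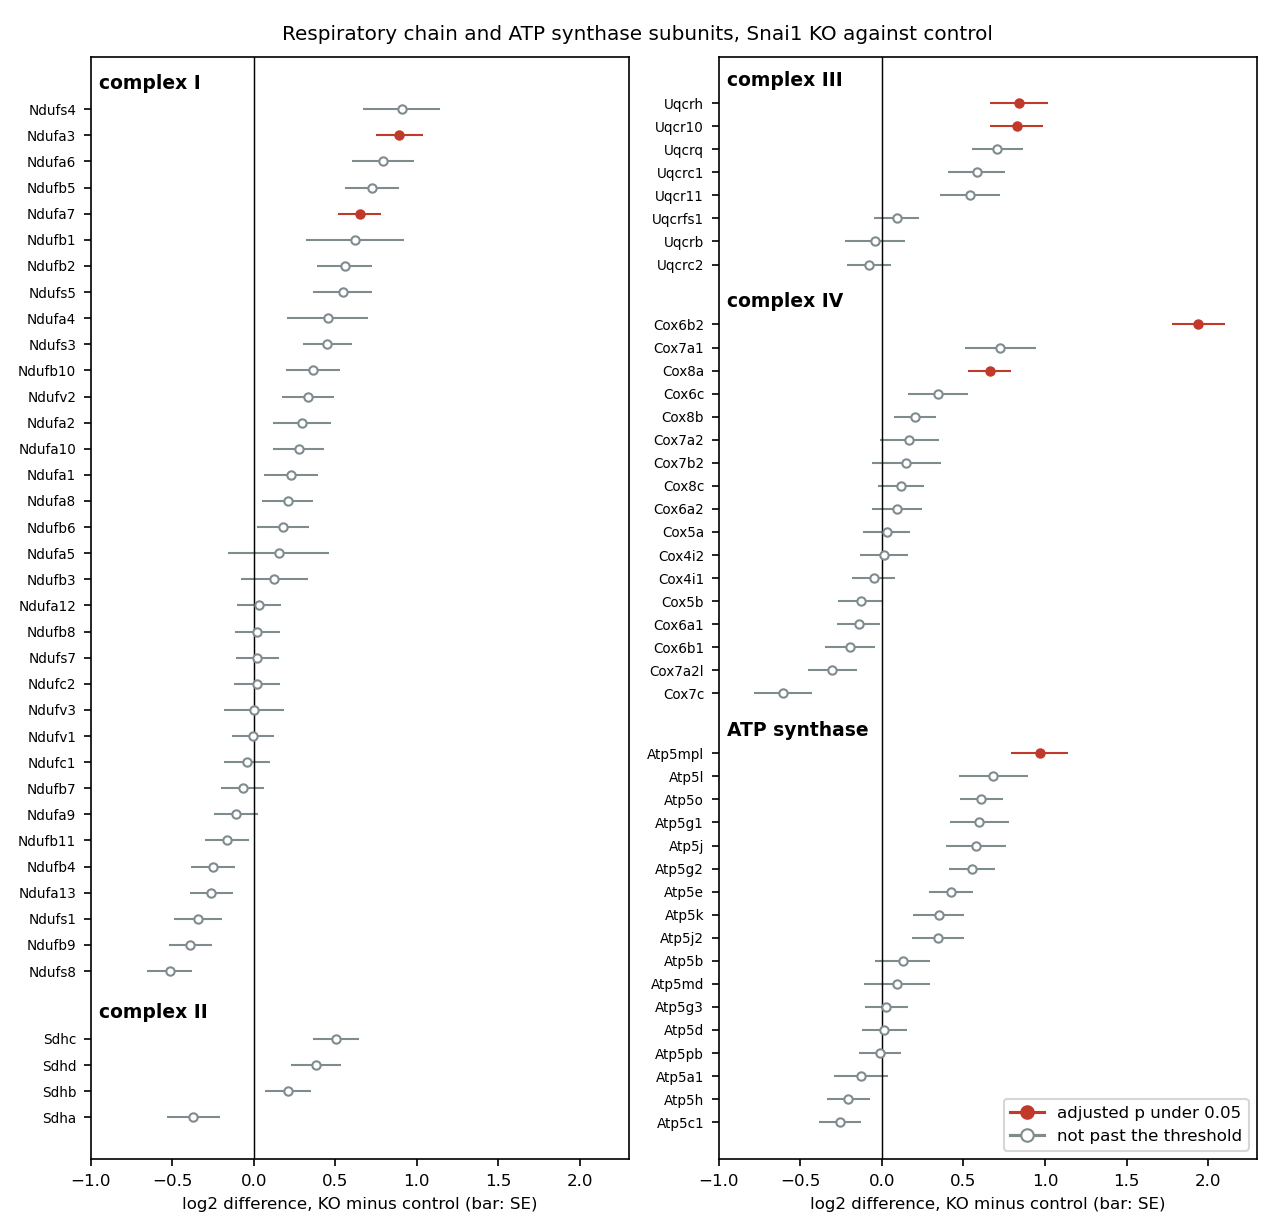
Log2 difference between Snai1 knockout and control (x axis) for each of the 80 subunits (rows), grouped by complex and sorted within it. Points are differences of the means of 2 arrays per group, bars are limma standard errors, and the 7 filled red points passed an adjusted p of 0.05; Cox6b2 stands furthest to the right at 1.94.

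In complex I, which oxidises NADH and passes the electrons to ubiquinone, 2 of 34 subunits rose (5.88%, against 1.98% of all genes) and none fell. At an unadjusted p under 0.05, 8 were higher (23.5%) and 2 lower (5.88%), against 9.06% and 14.9% of all genes. Both risers are accessory subunits outside the catalytic core. Ndufa3 was at 11.97 and 12.20 in knockout cells, against 11.15 and 11.23 in control cells. The groups lay far apart relative to their spread, with a difference of 0.89 ± 0.14 (SE, 1.86-fold, limma adjusted p = 0.034). Ndufa7 was at 12.71 and 12.72 in knockout cells, against 12.06 and 12.08 in control cells, a difference of 0.65 ± 0.13 (SE, adjusted p = 0.0453). The arrays of each group lay very close together for this gene, and its other 4 probe sets differed in the same direction, by 0.63, 0.99, 0.69 and 0.63.

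The largest complex I difference belonged to Ndufs4, an accessory subunit whose loss causes a Leigh-like encephalopathy in mice. It was seen in only the brightest of its 4 probe sets, and the others differed by -0.09, -0.08 and -0.42. The brightest was at 10.28 and 11.02 in knockout cells, against 9.70 and 9.78 in control cells, and its difference of 0.91 ± 0.23 (SE) did not pass (limma adjusted p = 0.0701). Ndufa6 (0.79), Ndufb5 (0.73), Ndufb1 (0.62), Ndufb2 (0.56) and Ndufs5 (0.54) also lay higher without passing, with adjusted p between 0.0564 and 0.268. At the lower end stood Ndufs8, a core subunit that holds iron-sulfur clusters, at 11.60 and 11.72 in knockout cells, against 12.12 and 12.24 in control cells (difference -0.52 ± 0.14, SE, adjusted p = 0.073), and the accessory Ndufb9 (-0.39). The second of the 6 Ndufs8 probe sets differed by -0.57, but the other 4 lay higher in the knockout, by 0.26, 0.22, 0.40 and 0.06, and the second of Ndufb9 by 0.39. Of the core subunits given whatever their values, Ndufv1, which binds NADH and flavin, was at 11.29 and 11.29 in knockout cells, against 11.26 and 11.34 in control cells. Ndufs1, the largest core subunit, was at 10.62 and 10.82 in knockout cells, against 10.96 and 11.16 in control cells, a difference of -0.34 ± 0.15 (SE, adjusted p = 0.218). By name series, 2 of 12 Ndufa, 0 of 11 Ndufb, 0 of 2 Ndufc and 0 of 9 Ndufs and Ndufv genes passed in limma. Of all genes 1.98% passed as higher. At an unadjusted p under 0.05, 3, 2, 0 and 3 were higher, against 9.06% of all genes. Differences between the series were not tested.

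Complex II, which oxidises succinate and is shared with the citric acid cycle, had no subunit past the threshold among 4, with 2 higher (50%, against 9.06% of all genes) and none lower at an unadjusted p under 0.05. Its largest difference was that of Sdhc, a membrane anchor, at 9.80 and 9.68 in knockout cells, against 9.15 and 9.31 in control cells (0.51 ± 0.14, SE, limma adjusted p = 0.0802). Sdha, the flavoprotein that carries the catalytic site, lay on the other side, at 10.86 and 10.72 in knockout cells, against 10.99 and 11.33 in control cells (-0.37 ± 0.16, SE, adjusted p = 0.217). In each of the 4 genes the groups did not overlap, 3 with the knockout higher and Sdha with the knockout lower. Such separation is common with 2 arrays per group: 23.1% of all genes lay higher and 29.2% lower without overlap. The iron-sulfur subunit Sdhb differed by 0.21 and the second anchor Sdhd by 0.38.

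Complex III, which carries electrons from ubiquinol to cytochrome c, had 2 of 8 subunits rise (25%, against 1.98% of all genes) and none fall, and 5 were higher (62.5%, against 9.06% of all genes) and none lower at an unadjusted p under 0.05. Its median difference was 0.56. Without overlap between the groups, 5 of the 8 genes lay higher and none lower, against 23.1% and 29.2% of all genes. Uqcrh, the small acidic hinge protein that helps dock cytochrome c1 to cytochrome c, was at 12.55 and 13.01 in knockout cells, against 11.90 and 11.99 in control cells (0.84 ± 0.18, SE, limma adjusted p = 0.0487). Uqcr10, a small membrane subunit, was at 11.59 and 11.96 in knockout cells, against 10.92 and 10.98 in control cells (0.83 ± 0.16, SE, adjusted p = 0.0445). In both genes knockout replicate 2 was the highest array, and the control arrays lay close together. The ubiquinone-binding Uqcrq missed the threshold at 0.71 ± 0.16 (SE, adjusted p = 0.0516), followed by the core protein Uqcrc1 (0.58) and Uqcr11 (0.54). The Rieske iron-sulfur protein Uqcrfs1, a catalytic subunit, was at 11.18 and 11.18 in knockout cells, against 10.99 and 11.19 in control cells (0.09 ± 0.14, SE), while Uqcrb and the core protein Uqcrc2 differed by -0.04 and -0.08. In the RefSeq gene table (assembly GRCm38.p6), Uqcrh overlaps the pseudogene Gm12854 and Uqcr10 the long noncoding RNA Gm51883, and whether their probe sets take up signal from these was not tested. The probe sets used for Ndufa3, Ndufa7 and Uqcrh carry the suffixes by which Affymetrix marks probes shared with other transcripts. With a gene's probe sets averaged, Uqcr10 differed by 0.75 and Uqcrh by 0.67, and neither passed (adjusted p = 0.0783 and 0.0834; 4 of the 8 complex III genes were higher at an unadjusted p under 0.05), and 4 of the 80 subunits rose (5%, against 1.23% of all genes).

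Complex IV, which reduces oxygen to water, held the largest rise of all 80 genes. Cox6b2, an isoform of subunit VIb known mainly from testis and sperm, was at 8.94 and 8.62 in knockout cells, against 6.92 and 6.75 in control cells. Both knockout arrays lay far above both control arrays, and the difference of 1.94 ± 0.16 (SE, 3.84-fold, limma adjusted p = 0.00718) compares with SDs of 0.225 within the knockout and 0.122 within the control (n = 2 each). Cox6b2 was measured by 1 probe set. Cox8a, the ubiquitous isoform of the small subunit VIII, was at 11.95 and 12.05 in knockout cells, against 11.34 and 11.33 in control cells (0.66 ± 0.13, SE, adjusted p = 0.0453). These were 2 of 17 subunits (11.8%, against 1.98% of all genes), and none fell. At an unadjusted p under 0.05, 3 were higher (17.6%) and 1 lower (5.88%), against 9.06% and 14.9% of all genes, the last being Cox7c (7.55 and 7.90 in knockout cells, against 8.18 and 8.49 in control cells, -0.61 ± 0.18, SE, adjusted p = 0.0905). Cox5a, Cox5b and Cox6c, which have no tissue isoform here, differed by 0.03, -0.13 and 0.34. Their other probe sets at a mean of 6 or more differed by 0.38 and 0.02 (Cox5a), -0.13, 0.34 and 0.62 (Cox5b) and 0.005 (Cox6c).

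In ATP synthase 1 of 17 subunits rose (5.88%, against 1.98% of all genes) and none fell, and at an unadjusted p under 0.05 7 were higher (41.2%, against 9.06% of all genes) and none lower. Atp5mpl, a small proteolipid of the membrane part, was at 11.80 and 12.21 in knockout cells, against 10.96 and 11.11 in control cells (0.97 ± 0.17, SE, 1.96-fold, limma adjusted p = 0.0401). Including Atp5mpl, 9 of the 17 genes lay higher in the knockout without overlap of the groups, and 2 lay lower, against 23.1% and 29.2% of all genes. Atp5o, the stalk subunit that confers oligomycin sensitivity, came next to the threshold (0.61 ± 0.13, SE, adjusted p = 0.0508), with Atp5l (0.68), Atp5j (0.58), Atp5e (0.42), Atp5k (0.35) and Atp5j2 (0.34) also above 0. In the catalytic head, Atp5a1, the alpha subunit, was at 12.80 and 12.58 in knockout cells, against 12.66 and 12.98 in control cells, and Atp5b, the catalytic beta subunit, at 13.13 and 12.88 in knockout cells, against 12.72 and 13.03 in control cells. These groups overlapped in both genes (differences -0.13 ± 0.17 and 0.13 ± 0.17, SE). The gamma subunit Atp5c1, which forms the rotating shaft, differed by -0.26 and the delta subunit Atp5d by 0.01.

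**Figure D2:**
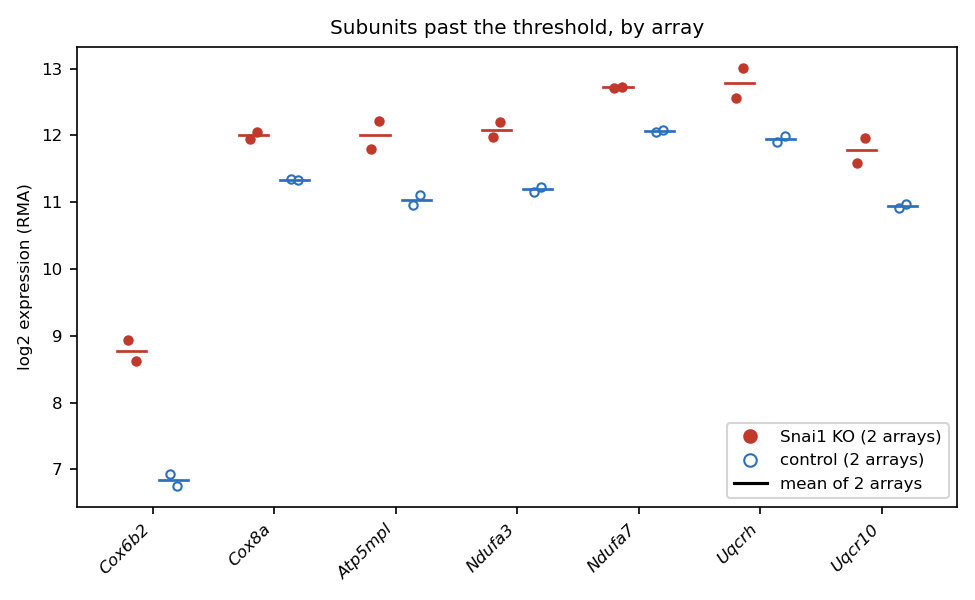
Log2 expression (y axis) of the 7 subunits that passed the threshold (x axis), with 1 point per array, Snai1 knockout in filled red at the left of each gene and control in open blue at its right, and bars at the mean of 2 arrays. In every one of the 7 genes both knockout arrays lie above both control arrays, and the gap is widest for Cox6b2.

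The 7 subunits that rose are small or accessory proteins of their complexes, and none of the catalytic subunits Ndufs1, Ndufv1, Sdha, Uqcrfs1, Atp5a1 and Atp5b passed in limma (none of the 6 had an unadjusted p under 0.05). By their brightest probe sets, the differences of these 6 ran between -0.37 and 0.13. Of all 80 subunits only 8.75% rose, so none among 6 is no contrast. The other core subunits of complex I, Ndufs3, Ndufv2, Ndufs7 and Ndufs8, differed by 0.45, 0.34, 0.02 and -0.52, and none passed. Whether accessory and catalytic subunits differ from each other was not tested.

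The promoters of 3 of the genes that rose are shown because nuclear respiratory factors are known to bind close to the start of many respiratory chain genes. They are RefSeq sequences of GRCm38.p6, 250 bases before to 50 bases after the annotated start on the gene's strand, and capitals mark matches to the ETS core ACTTCCGG, recognised by GABPA, on either strand.
Cox6b2: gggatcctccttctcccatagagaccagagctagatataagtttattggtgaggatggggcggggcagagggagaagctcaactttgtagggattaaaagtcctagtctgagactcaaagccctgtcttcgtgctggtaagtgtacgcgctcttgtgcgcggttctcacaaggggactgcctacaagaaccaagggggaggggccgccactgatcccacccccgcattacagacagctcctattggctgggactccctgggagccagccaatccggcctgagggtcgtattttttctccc
Cox8a: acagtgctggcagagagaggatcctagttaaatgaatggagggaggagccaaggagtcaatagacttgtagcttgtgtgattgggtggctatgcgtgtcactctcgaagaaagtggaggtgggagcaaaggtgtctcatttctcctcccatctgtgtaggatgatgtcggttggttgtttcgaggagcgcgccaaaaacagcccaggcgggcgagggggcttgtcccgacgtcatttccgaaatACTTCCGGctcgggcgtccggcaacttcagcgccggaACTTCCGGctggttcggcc
Uqcrh: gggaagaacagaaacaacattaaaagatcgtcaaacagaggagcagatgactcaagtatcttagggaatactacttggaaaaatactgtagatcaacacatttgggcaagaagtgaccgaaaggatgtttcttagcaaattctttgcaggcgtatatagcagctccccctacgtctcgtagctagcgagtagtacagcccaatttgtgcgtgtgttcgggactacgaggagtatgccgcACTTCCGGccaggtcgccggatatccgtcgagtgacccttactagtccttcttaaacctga
The windows are chr7:4753045-4753344 for Cox6b2, chr19:7217567-7217866 for Cox8a and chr4:116075021-116075320 for Uqcrh, all on the minus strand. Cox8a holds 2 matches, beginning at -6 and at 32 from the start, and Uqcrh holds 1, beginning at -11. Neither these letters nor the palindromic consensus site of NRF1, searched as exact letters, occur in the Cox6b2 window. The windows of Ndufa3, Ndufa7 and Uqcr10, which are not shown, held neither, and no window was found for Atp5mpl. Of the 6 genes that rose and had a window, 2 held the ETS core and 0 the NRF1 site. Promoter sequences were found for 66 of the 80 genes (71 windows). Of these windows 5 (7.04%) held the ETS core, against 3.89% of 32851 windows of all genes, and 4 (5.63%) held the NRF1 site, against 0.971%. The ETS windows belonged to Cox8a, Uqcrh, Uqcr11, Ndufs3 and Atp5h, whose genes differed by 0.66, 0.84, 0.54, 0.45 and -0.21 between knockout and control. Those with the NRF1 site belonged to Uqcrc1, Atp5g2, Atp5k and Cox6a1, at 0.58, 0.55, 0.35 and -0.14. A match of letters is a description and not evidence of binding.

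Among isoforms of the same subunit, Cox6b2 and Cox8a were the members that rose. In the Cox6b pair Cox6b2 rose by 1.94, while Cox6b1, the somatic isoform, was at 12.68 and 12.88 in knockout cells, against 12.86 and 13.10 in control cells (-0.19 ± 0.15, SE, limma adjusted p = 0.519). The second probe set of Cox6b1 turned the direction, at 0.28. The groups overlapped for the brightest probe set of Cox6b1 and lay apart for Cox6b2, but the difference between the isoforms was not itself tested. In the Cox8 family Cox8a rose, whereas the heart and muscle isoform Cox8b was at 4.74 and 4.75 in knockout cells, against 4.55 and 4.54 in control cells, within the range of the Bacillus probe sets. Cox8c, a testis isoform, was at 6.97 and 7.14 in knockout cells, against 6.99 and 6.88 in control cells, with overlapping groups.

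Cox4i1, the general isoform of subunit IV, was at 13.21 and 13.14 in knockout cells, against 13.20 and 13.25 in control cells, and Cox4i2, its hypoxia-responsive lung isoform, at 4.88 and 5.15 in knockout cells, against 5.02 and 5.00 in control cells, just above background. The groups overlapped for both. Cox6a1, the general isoform, was at 13.63 and 13.64 in knockout cells, against 13.76 and 13.79 in control cells (-0.14 ± 0.13, SE). Its second probe set turned the direction and passed in place of the brightest (0.91, adjusted p = 0.0416), and the average of both differed by 0.38. The muscle counterpart Cox6a2 was at 6.63 and 6.42 in knockout cells, against 6.55 and 6.32 in control cells. In the Cox7a family the muscle isoform Cox7a1 lay higher, at 7.76 and 8.40 in knockout cells, against 7.25 and 7.46 in control cells, but did not pass (0.72 ± 0.22, SE, limma adjusted p = 0.0966). Its general counterpart Cox7a2 was at 13.27 and 13.63 in knockout cells, against 13.13 and 13.44 in control cells, with overlapping groups. For the second probe set of Cox7a2 the groups did not overlap, with the knockout higher by 0.57. In place of the brightest it did not pass (limma adjusted p = 0.179). Whether Cox7a1 and Cox7a2 differ from each other was not tested. Cox7a2l, a relative that joins complexes III and IV into supercomplexes, was at 11.25 and 11.49 in knockout cells, against 11.59 and 11.77 in control cells (-0.30 ± 0.15, SE, adjusted p = 0.283). Cox7b2, a testis isoform, stayed within the background range on all arrays, at 3.65 and 4.28 in knockout cells, against 3.84 and 3.78 in control cells.

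Subunit c, which forms the rotor ring of ATP synthase, is encoded by 3 genes that differ only in the targeting peptide that is cut off on import. Atp5g1 was at 11.80 and 12.21 in knockout cells, against 11.28 and 11.55 in control cells (0.60 ± 0.18, SE, limma adjusted p = 0.0992). Atp5g2 was at 12.18 and 12.27 in knockout cells, against 11.58 and 11.77 in control cells (0.55 ± 0.14, SE, adjusted p = 0.0693). For Atp5g1 and Atp5g2 the groups did not overlap, though neither passed. Atp5g3 was at 13.43 and 13.35 in knockout cells, against 13.37 and 13.35 in control cells, a difference of 0.03 ± 0.13 (SE), with overlapping groups.

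**Figure D3:**
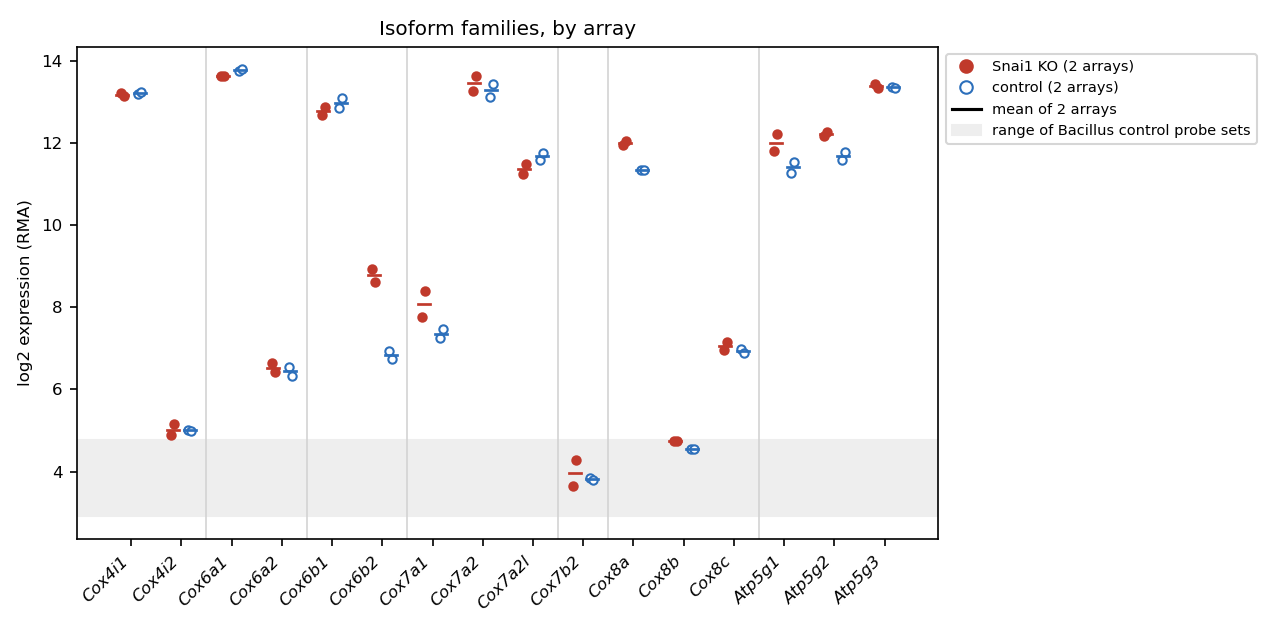
Log2 expression (y axis) of the 16 genes of the isoform families (x axis, families parted by grey lines), 1 point per array, Snai1 knockout in filled red at the left of each gene and control in open blue at its right, bars at the mean of 2 arrays, and the grey band spanning the Bacillus control probe sets (2.91 to 4.77). Cox6b2 and Cox8a were the members past the threshold, and Cox7b2 and Cox8b lie in the band; heights of different genes are not comparable.

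Several subunits gave a different answer from another probe set of the same gene. Of the 80 genes, 48 had more than 1 probe set, and in 42 the second brightest had a mean of 6 or more. In these 42 the median difference was 0.02 for the brightest and 0.37 for the second brightest probe set, and 8 genes were negative for the brightest and positive for the second. Over all 3534 such genes the medians were -0.18 and -0.05. The second probe set of Cox6a1 was at 12.34 and 12.55 in knockout cells, against 11.52 and 11.55 in control cells, a difference of 0.91, against -0.14 for the brightest. Atp5d showed 1.07 against 0.01, Ndufb7 0.87 against -0.07 and Ndufs7 0.84 against 0.02. With the second brightest probe set in place of the brightest, these 4 genes, Ndufa3 and Cox6b2 (which has no second) passed in limma (adjusted p between 0.0164 and 0.0475), 6 subunits in all (7.5%, against 1.49% of all genes), of which 2 were among the 7 above.

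The second probe set lay further up by more than 0.5 in 9 of the 42 genes (21.4%), against 22.6% of the 3534 genes, but with both probe sets at 10 or more it did so in 9 of 35 subunits (25.7%), against 16.3% of 527 genes. Ndufc1, Uqcrb, Ndufb9, Atp5h and Ndufa5 made up the remainder of the 9, with 0.76, 0.79, 0.39, 0.43 and 0.71 for the second probe set and -0.04, -0.04, -0.39, -0.21 and 0.15 for the brightest. The reverse, a second probe set lower by more than 0.5, was found for Ndufs4 (-0.09 against 0.91), Ndufb5 (-0.02 against 0.73), Uqcrq (-0.36 against 0.71), Ndufv2 (-0.25 against 0.34) and Atp5c1 (-1.10 against -0.26). For the 5 of the 7 risers that had further probe sets at a mean of 6 or more, all 9 such probe sets were higher in the knockout by at least 50% of the brightest one's log2 difference. The position of these probe sets along the transcripts was not analysed here. The part of the Actb and Gapdh gaps, which differed by -2.04 and -1.02 between knockout and control, in these disagreements was not tested.

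**Figure D4:**
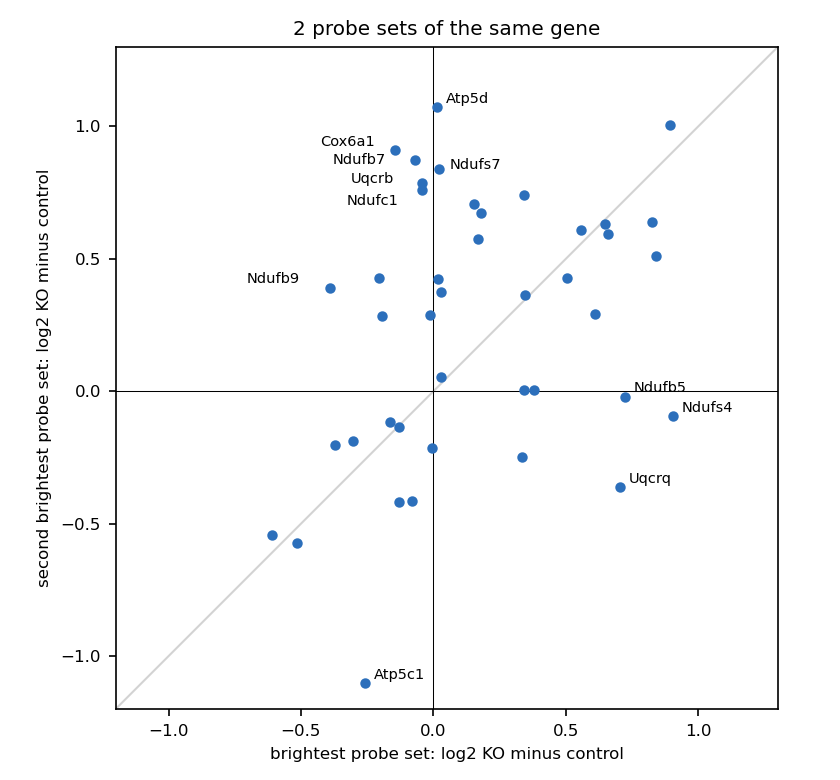
Log2 difference between Snai1 knockout and control for the brightest (x axis) and the second brightest probe set (y axis) of the 42 subunit genes whose second probe set had a mean of 6 or more, 1 point per gene, with the grey line where both are equal. Named genes differ by more than 0.65 between their probe sets; the group at the upper centre, with Atp5d, Cox6a1, Ndufb7, Ndufs7, Uqcrb and Ndufc1, lies near 0 for the brightest and between 0.76 and 1.07 for the second.

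The subunit genes are bright and short, with a median level of 11.66 and a median genomic span of 7.15 kb, against 20.3 kb for all genes. At a mean of 10 or more, 6 of 69 subunits rose (8.7%), against 3.7% of all 1999 such genes. Of these bright genes, 3 of 21 subunits under 5 kb rose (14.3%), against 9.12% of all bright genes under 5 kb. Of 5 to under 10 kb, 2 of 28 subunits rose (7.14%), against 7.38%, so that in the middle class the share was close to that of all bright genes of this size. For 10 kb or more the shares were 1 of 20 subunits (5%), against 1.55%. From the short to the long class, the median differences were 0.30, 0.14 and 0.10 for the bright subunits. Those of all bright genes were 0.17, 0.02 and -0.20. Spearman's rho between span and difference was -0.151 across the 69 bright subunits and -0.389 across all bright genes; both are descriptions over genes that share the same 4 arrays. After each array's trend with span and level was removed, 5 subunits rose (6.25%, against 2.1% of all genes), namely Cox6b2 (1.70), Atp5mpl (0.85), Uqcrh (0.81), Ndufa7 (0.70) and Ndufa3 (0.69), while Cox8a and Uqcr10 no longer passed. The median difference of the 80 genes was then 0.11. Ndufs8 (-0.67) and Cox7c (-0.83) passed as lower in that analysis (2.5%, against 1.13% of all genes), each by its brightest probe set, while 4 of the 6 Ndufs8 probe sets lay higher in the knockout before the trend was removed.

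The subunits also differed between the arrays of a group. Replicate 2 lay above replicate 1 for 66 of 80 subunits in the knockout (82.5%, against 48.4% of all genes) and for 61 in the control (76.2%, against 57.9%), and for 53 in both. With the replicate number as a block, which the labels do not describe as a pairing, 24 subunits rose (30%, against 6.6% of all genes). In complex I, knockout replicate 2 was the higher for 32 of 34 genes. The mean level of the 80 genes was 11.11 in replicate 1 and 11.33 in replicate 2 of the knockout, against 10.93 and 11.04 in the control. The median SD within a group was 0.167 in the knockout and 0.0829 in the control. Markers of fibroblasts, the usual feeder cells, ran the other way between replicates: the mean of 19 measured markers was 7.67 in replicate 1 and 6.92 in replicate 2 of the knockout, against 7.97 and 7.24 in the control, with 16 of the 19 above background on every array and 15 higher in replicate 1 of both groups. No feeder marker passed in limma (0 were higher and 2 lower at an unadjusted p under 0.05). The mean of the 12 ES cell markers was 11.45 and 11.29 in knockout cells, against 10.88 and 10.97 in control cells. Of the 12, 5 rose (41.7%, against 1.98% of all genes), with Utf1, Lin28a and Esrrb furthest up at 1.62, 1.34 and 1.05. The median difference of the 12 was only 0.08, and 3 lay lower without passing, Fgf4 (-0.38), Sall4 (-0.27) and Sox2 (-0.02). The part of the cell mixture in the differences of the subunits was not tested, and in these bulk samples fewer cells of a type and less RNA per cell cannot be told apart.

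**Figure D5:**
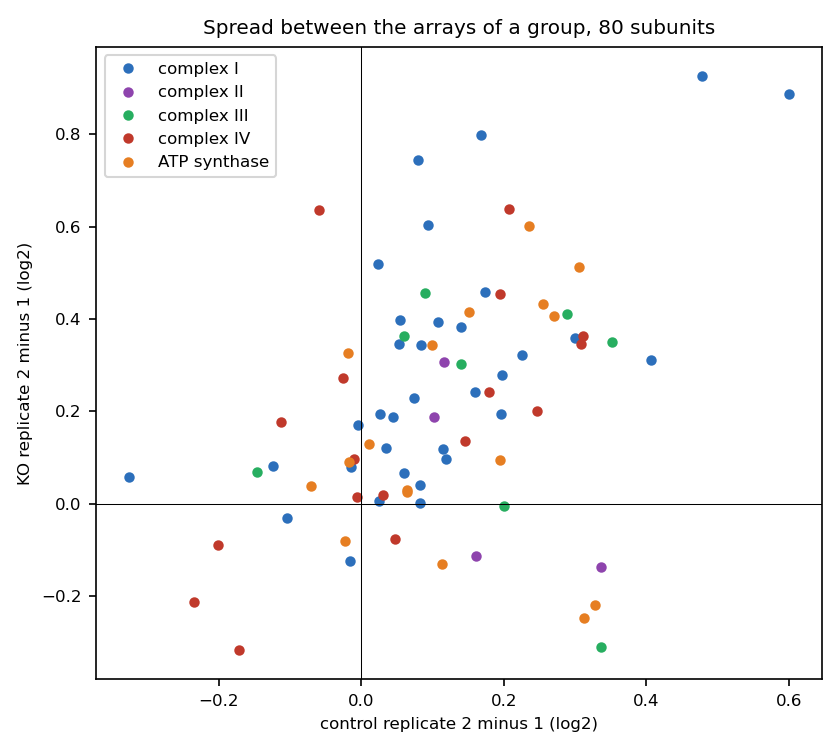
Difference between replicate 2 and replicate 1 (log2) in the control (x axis) and in the Snai1 knockout (y axis) for the 80 subunits, 1 point per gene, coloured by complex. Most points (53 of 80) lie in the upper right, where replicate 2 is higher in both groups, and the complex I genes reach furthest up.

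Other genes of the pathway gave few calls. Of 46 measured assembly factors, which build the complexes but are not part of them, none rose and 1 fell (2.17%, equal to the 2.17% of all genes), with 11 higher (23.9%) and 4 lower (8.7%) at an unadjusted limma p under 0.05, against 9.06% and 14.9% of all genes. The one that fell was Ttc19, which clears fragments of the Rieske protein from complex III, at 7.03 and 7.15 in knockout cells, against 7.75 and 7.96 in control cells (-0.76 ± 0.14, SE, adjusted p = 0.0428). Among 14 further subunits, electron carriers and associated proteins, 1 rose (7.14%, against 1.98% of all genes) and none fell. The riser was Higd2a, a supercomplex assembly protein, at 11.23 and 11.26 in knockout cells, against 10.46 and 10.69 in control cells (0.67 ± 0.14, SE, limma adjusted p = 0.0494). Of the 14, 3 were higher (21.4%) and 1 lower (7.14%) at an unadjusted p under 0.05, against 9.06% and 14.9% of all genes.

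The enzymes of the citric acid cycle, which feed the chain with NADH and succinate, had no call among 15 in limma. At an unadjusted p under 0.05, 1 was higher (6.67%) and 4 lower (26.7%), against 9.06% and 14.9% of all genes. Their median difference was -0.18. These genes are bright and long, with a median level of 11.05 and a median span of 23.3 kb, and all bright genes of 10 kb or more had a median of -0.20. Dld, the dihydrolipoamide dehydrogenase, came nearest at 9.11 and 9.18 in knockout cells, against 9.77 and 9.73 in control cells (-0.60 ± 0.13, SE, adjusted p = 0.0509), while Ogdh, of the oxoglutarate dehydrogenase complex, had the largest difference (0.74 ± 0.20, SE, adjusted p = 0.0739). Regulators of mitochondrial biogenesis and mitochondrial DNA likewise had no call among 17. None was higher and 6 were lower (35.3%) at an unadjusted p under 0.05, against 9.06% and 14.9% of all genes. Of genes at a mean of 6 or more, 24.7% were lower. The regulators had a median difference of -0.33, against -0.02 of all genes and -0.09 of genes at a mean of 6 or more. Their median level was 8.88 and their median span 21.7 kb. Among them the largest difference was that of Polg2, an accessory subunit of the mitochondrial DNA polymerase (-0.49 ± 0.16, SE, adjusted p = 0.109). Tfam, the main packaging factor of mitochondrial DNA, was at 10.36 and 10.30 in knockout cells, against 10.70 and 10.71 in control cells (-0.37, adjusted p = 0.138).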

How the data were processed

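Transcript levels were measured in 2 Snai1 knockout and 2 control ES cell samples on single-colour Affymetrix 3' arrays. The deposited values were log2 expression per probe set (45101 per array, 2.56 to 14.78), made with RMA by the authors per the submitters' processing notes, which also name limma; the sources used here do not give versions, settings or a genome build. Because RMA equalises the arrays' distributions, a shift common to most genes would not show. Gene names came from GEO's platform annotation. The 34945 with 1 symbol were reduced to the brightest per gene (18193 genes), and 0 symbols changed when checked by gene ID against RefSeq (GRCm38.p6), which also gave spans for 18031 genes.

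The groups were compared by limma 3.58.1 in R 4.3.3 (lmFit, eBayes, no covariates), two-sided, adjusted by Benjamini-Hochberg over all genes at 0.05; with 2 arrays per group the number of arrays limits the precision (2 residual and 5.31 prior degrees of freedom). The members and gene lists were chosen with earlier results of these data known. Named were every subunit past the threshold, the largest change in a complex without one, all isoform family members and 6 catalytic subunits, and up to 3 members of each other list; other genes were named after their values were seen. Alternatives were other error models, scalings, filters, probe set rules, a trend removal (loess span 0.3), a block for replicate number and the omission of each array in turn. Figures were drawn with matplotlib 3.10.9.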

Additional observations from a re-analysis of the deposited data

How the results depend on the processing

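With 2 arrays per group, the counts rested on each array. Leaving out 1 array at a time, the single array left being assumed to have the spread of the other group, gave 4 to 50 genes called (754 with all arrays), 0 to 1 subunits higher, 0 to 1 in complex IV, 0 in complexes I and III and in ATP synthase, and a median difference of 0.0713 to 0.3482 for the subunits. The genes called numbered 481 with an intensity trend in eBayes, 1224 and 339 when only genes at a mean of 6 or 10 were tested, 321 with all probe sets averaged and 393 with the second brightest. The subunits that rose numbered 12 under each level filter (15.8%, against 5.54% of all genes, at 6, and 17.4%, against 7.35%, at 10; 5 in complex I; 2 and 3 in ATP synthase at 6 and 10, and 1 in complex IV at 10, where Cox6b2 was not tested; 1 subunit, Ndufs8, fell at 10), and 4 with probe sets averaged (0 in complex III, with 4 at an unadjusted p under 0.05, and 1 in complex IV). With the second brightest probe set, complex III had 0 (5 at an unadjusted p under 0.05) and Cox6a1 changed sign and passed (0.91, adjusted p = 0.0416). ATP synthase had 2 with an intensity trend, with a robust fit and with a further quantile normalization. Removal of the span trend left 1 each in complexes III and IV and added 2 that fell. With the replicate number as a block, which the labels do not describe as a pairing, 3092 genes were called, with 24 subunits higher (9 in complex I, 1 in complex II, 5 in complex III and 6 in ATP synthase) and 2 lower; same-numbered deviations correlated at 0.403 over the 80 subunits and 0.294 over all genes. The causes of these changes were not tested. Of the 7 subunits that rose, Ndufa3 and Cox6b2 passed under every alternative run for them with all 4 arrays; Cox6b2 passed without 3 of the 4 arrays in turn (adjusted p up to 0.0775 without control replicate 2), and the other 6 passed in none of these omissions.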

Other observations

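Some complex I subunits were also read by probe sets annotated to several genes, which were kept out of the comparison. Ndufb4, whose single-gene probe set lay in the background range at 3.52 and 3.39 in knockout cells, against 3.71 and 3.70 in control cells, shared 2 bright probe sets with its near copies Ndufb4b and Ndufb4c. These were at 11.53 and 11.71 in knockout cells, against 11.04 and 11.11 in control cells, and at 11.48 and 11.70 in knockout cells, against 10.70 and 10.29 in control cells. Both lay higher in the knockout, by 0.55 and 1.10, while the single-gene probe set did not detect the transcript. The probe set shared by Ndufa11 and Ndufa11b was at 11.09 and 11.33 in knockout cells, against 10.59 and 10.80 in control cells, that of Ndufs6 and Ndufs6b at 11.71 and 11.93 in knockout cells, against 11.51 and 11.71 in control cells, and that of Ndufs5 and its pseudogene at 11.23 and 11.58 in knockout cells, against 10.82 and 11.01 in control cells. No test was run on these probe sets, and the copies cannot be told apart.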
